A study of Mus musculus with 2 samples.

Results

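The enzymes that make serine and pass its carbon to folate and to S-adenosylmethionine were described in epididymal white adipose tissue, a visceral fat depot of male mice, after high-fat feeding and on normal chow. They were chosen by name, as all probe sets that carry a single gene symbol out of 9 (Phgdh, Psat1, Psph, Shmt1, Shmt2, Mthfd1, Mthfd2, Mthfd1l and Mat2a). The annotation used gave 21 probe sets for 8 of these genes, of 45037 probe sets and 18193 named genes in all. No probe set there carries Mat2a alone, so Mat2a, the enzyme that makes S-adenosylmethionine outside the liver, was not analysed here. The high-fat diet array held RNA of a male C57BL/6 mouse fed that diet for 7 weeks, and the chow array RNA of a male C57BL/6 mouse on normal chow. Per the labels, the diets began at 9 weeks of age, and regular food was freely available until then. A feeding time is given here for the high-fat diet mouse only, so equal age at sampling is not shown. The composition of the diets is not given in the sources used here. Each diet had 1 array from 1 mouse. Spread between animals is therefore unknown, the diet could not be tested, and "higher" or "lower" compares 1 mouse with 1 mouse.

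Serine can be made from an intermediate of glycolysis by Phgdh, Psat1 and Psph in turn. Serine hydroxymethyltransferases, Shmt1 in the cytosol and Shmt2 in mitochondria, then split it into glycine and a carbon unit carried on folate. Mthfd2 and Mthfd1l oxidise the mitochondrial unit and release it as formate, and Mthfd1 handles formate and the carried unit in the cytosol, where they feed purine, thymidylate and methionine synthesis. Folate-linked oxidation can also yield NADPH.

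The intensity of a probe set is its brightness in array units. The floor for weak signal was the 40th percentile within an array, 27.9 on the high-fat diet and 28.6 on chow, and values under it were raised to it before log2 was taken. A difference is the log2 intensity on the high-fat diet less that on chow, and where one side was under the floor the difference is a bound. A gene is represented by its probe set with the highest mean log2 intensity. The pooled SD of probe set differences around the mean difference of their gene was 0.32 log2 units over 5196 genes. Among genes whose mean intensity was below 100 it was 0.37, from 100 to 400 it was 0.29, and at 400 or more it was 0.20. This SD covers probe error on these arrays and no difference between animals.

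The tissue label was checked against markers. Genes that define fat cells were bright on both arrays, with Adipoq, the gene of adiponectin, at 8718.4 on the high-fat diet and 8372.1 on chow. The fat cell list of 12 genes had 11 measured members, with a median difference of 0.11. Mesothelial markers, of the lining of the fat pad, were 1.5-fold or more lower in 4 of 6 genes on the high-fat diet, with summed intensities of 918.3 there and 1372.6 on chow. Of these 6 genes 5 were lower and 1, Msln, was 1.37-fold higher, at 101 on the high-fat diet and 73.9 on chow. Liver genes were 1.5-fold or more lower in 5 of 8 measured genes, and their summed intensity without Cyp2e1, which is also expressed in fat, was 274 on the high-fat diet and 761.7 on chow. Of the measured liver genes 7 were lower and 1 higher. Apoa2 was above the floor only on chow, at 13.1 on the high-fat diet and 214.2 on chow. Ttr was at 28.6 on the high-fat diet, near the floor, and 108.7 on chow. Alb was at 121.5 on the high-fat diet and 141.5 on chow, and Fgb was under the floor on both arrays. Proliferation markers were 1.5-fold or more higher in 4 of 7 measured genes, with summed intensities of 414 on the high-fat diet and 311 on chow. The medians of these lists depended on which probe sets, and so which genes, were used. Plain probe sets are those whose names end in _at with no further letter. With plain probe sets only, the list medians were 0.0068 for proliferation, -0.22 for liver and -0.35 for mesothelial markers. As reported they were 0.61, -1.06 and -0.72. Apoa1, Apoa2, Ttr and Ahsg of the liver list have no measured plain probe set and drop out there. Top2a and Birc5 of the proliferation list and Wt1 of the mesothelial list drop out in the same way. The measured probe sets of Apoa1 and of Ttr were all lower on the high-fat diet. Markers of fat cell progenitors and fibroblasts were 1.5-fold or more higher in 3 of 7 measured genes and lower in 1, with sums of 5905.6 on the high-fat diet and 4116.2 on chow. The part of these cell markers in the member differences was not tested. In a bulk sample, fewer cells of a type and less RNA per cell cannot be told apart.

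All 6 probe sets of Phgdh and Psat1 were higher on the high-fat diet, by 0.22 to 0.67. Shmt1 was lower by 0.53 in the 1 probe set that exceeded both floors, and Mthfd1 was lower by 0.87 in its representative probe set, though not in all of its probe sets. Psph and the mitochondrial genes Shmt2, Mthfd2 and Mthfd1l lay within 0.22 of 0 in their representative probe sets. At 1.5-fold or more, 0 of the 8 measured members were higher, where 5.82% of all 14066 measured genes were, and 1 was lower, where 6.4% of all were. At 2-fold or more, 0 members were higher and 0 lower, beside 1.17% and 1.35% of all measured genes. Counted by probe set, 16 of the 21 exceeded the floor on both arrays, 9 of them higher and 7 lower. At 1.5-fold or more 2 of the 16 were higher and 1 lower, beside 5.45% and 5.99% of 24727 such probe sets. The median difference of the 8 members was 0.04, and that of all measured genes was -0.02. The median absolute difference was 0.29 for the members and 0.22 for all measured genes. The members as a set therefore lay close to the background, and the values are of interest gene by gene.

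**Figure D1:**
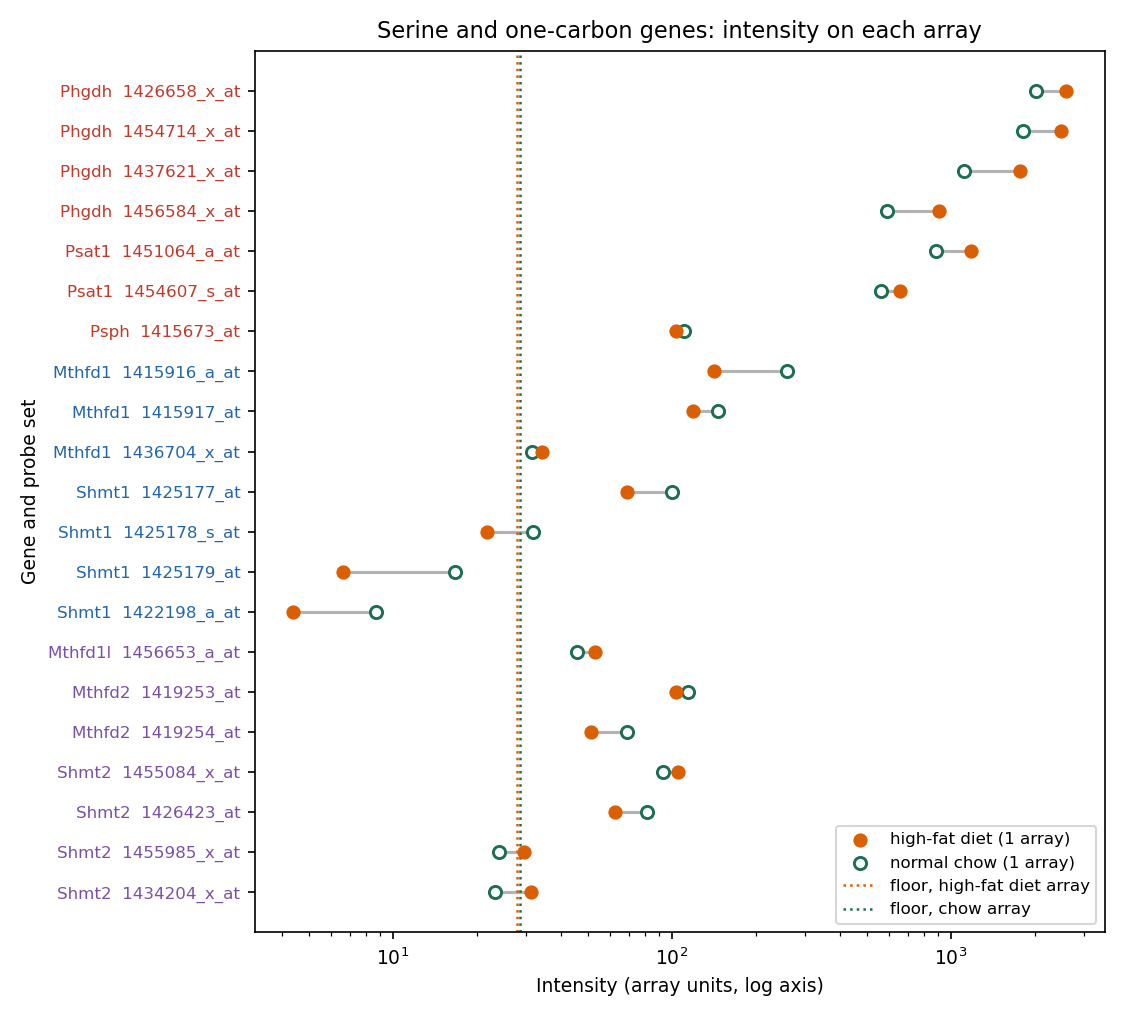
Intensity of each of the 21 member probe sets on the high-fat diet array (filled) and the chow array (open), on a log axis, with each array's floor dotted and labels coloured for serine synthesis (red), cytosolic folate (blue) and mitochondrial folate (purple). All Phgdh and Psat1 points are to the right on the high-fat diet, and 2 Shmt1 probe sets are under the floor on both arrays.

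Phgdh, phosphoglycerate dehydrogenase, catalyses the committed step of serine synthesis. Its brightest probe set, 1426658_x_at, had an intensity of 2590 on the high-fat diet and 2022 on chow, a difference of 0.36 or 1.28-fold higher. The probe set 1454714_x_at was at 2472.8 on the high-fat diet and 1813.7 on chow, 1.36-fold higher. All 4 probe sets of this gene gave the same direction. For 1437621_x_at the intensities were 1771 on the high-fat diet and 1114.2 on chow, 1.59-fold higher. The last, 1456584_x_at, was at 910 on the high-fat diet and 590.1 on chow, 1.54-fold higher. The mean difference over the 4 was 0.52. The smallest of the 4 differences exceeded the pooled probe SD of 0.20 for genes of this brightness on the deposited scale. Its size depended on the scaling. With quantile normalization, which gives both arrays the same spread of intensities, it was 0.21, close to that SD. The median of the bright fat cell list was 0 in that setting, against 0.11 on the deposited scale.

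Agreement of this kind was seen in other genes. Of 5196 genes with 2 or more probe sets past the floor on each array, 22.1% had all of them higher and 26.5% all lower. Of 485 genes with exactly 4 such probe sets, 12.6% had all 4 higher. In 1.03% of them (5 genes, Phgdh itself included) all 4 were higher by at least the smallest Phgdh difference, a size chosen after the Phgdh values were seen. By its brightest probe set alone Phgdh was unexceptional, with 86.1% of measured genes showing a lower difference. All 4 Phgdh probe sets are of the kind whose name ends in _x_at, in which some probes can bind other similar transcripts. The annotation also lists 2 probe sets under Phgdh together with a further gene model, which were left out by the rule. Whether transcripts of such similar sequences contributed was not tested.

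Psat1, phosphoserine aminotransferase, takes the product of Phgdh to phosphoserine with nitrogen from glutamate. Its probe set 1451064_a_at had an intensity of 1179.7 on the high-fat diet and 885.8 on chow, 1.33-fold higher, a difference of 0.41. Its second probe set, 1454607_s_at, was at 654.7 on the high-fat diet and 560.5 on chow, 1.17-fold higher. Both gave the same direction, but the second difference of 0.22 was close to the probe SD of 0.20 at this brightness. Of 3129 genes with exactly 2 probe sets past the floor on each array, 8.98% had both higher by at least the smaller Psat1 difference, a size also chosen after the values were seen. Psph, the phosphatase that releases free serine in the last step, had 1 probe set, at 103.7 on the high-fat diet and 110.6 on chow. Its difference was -0.09, smaller than the probe SD, which covers no difference between animals. Over the 7 probe sets of these serine synthesis genes 6 were higher and 1 lower, with a median of 0.41. The 6 are repeated readings, 4 of Phgdh and 2 of Psat1, on the same arrays. By gene the differences were 0.36 for Phgdh, 0.41 for Psat1 and -0.09 for Psph.

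The promoter letters of Phgdh and Psat1 are shown because these neighbours in the pathway were higher together. Each is the 250 bases before the start site from RefSeq on GRCm38.p6, read 5′ to 3′ on the gene's strand, with capitals marking the letters CCAAT or their reverse complement. The Phgdh stretch is chr3:98339970-98340219 and the Psat1 stretch, before the first of its 2 listed starts, is chr19:15925060-15925309, both on the minus strand.
Phgdh: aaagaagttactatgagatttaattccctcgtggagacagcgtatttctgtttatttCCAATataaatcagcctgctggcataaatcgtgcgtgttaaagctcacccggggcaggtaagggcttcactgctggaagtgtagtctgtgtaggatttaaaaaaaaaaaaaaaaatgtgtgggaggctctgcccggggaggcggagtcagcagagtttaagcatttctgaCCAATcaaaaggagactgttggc
Psat1: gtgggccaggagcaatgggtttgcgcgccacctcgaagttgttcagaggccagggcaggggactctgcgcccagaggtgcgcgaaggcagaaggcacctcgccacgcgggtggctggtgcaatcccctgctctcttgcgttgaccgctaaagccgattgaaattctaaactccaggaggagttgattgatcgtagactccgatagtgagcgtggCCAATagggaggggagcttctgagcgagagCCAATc
Each of these windows held 2 copies of CCAAT, the core letters bound by the factor NF-Y. Over all 9 members RefSeq listed 10 starts, and 7 of the 10 windows held CCAAT on either strand, beside 33.8% of 32851 windows of the same length over all genes. The letters TGATGNAA, a composite site of the stress factor ATF4, were in 0 of the 10 windows and in 3.45% of all windows. The E-box CACGTG was in 0 of the 10 and in 6.02% of all, and the GC box GGGCGG in 6 of the 10 and in 32.7% of all. Both strands were searched, and 0 CCAAT matches in the member windows overlapped another searched motif. Matches describe letters in these windows only, and a motif with no match may lie elsewhere.

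In the cytosol, Shmt1 was lower on the high-fat diet. Its probe set 1425177_at was at 69.2 on the high-fat diet and 100 on chow, a difference of -0.53. The probe set 1425178_s_at was above the floor only on chow, at 21.8 on the high-fat diet and 31.8 on chow, a difference of -0.19 with the first raised to the floor, so that it was at least 1.14-fold lower. Both pointed the same way, at weak signal. The other 2, 1425179_at and 1422198_a_at, were under the floor on both arrays, at 6.6 and 4.4 on the high-fat diet and 16.7 and 8.7 on chow, and gave no difference. That difference rests on 1 probe set, against a probe SD of 0.37 at low brightness.

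Mthfd1, the trifunctional cytosolic enzyme that interconverts the folate-bound carbon units, was the only member past 1.5-fold by its representative probe set. That probe set, 1415916_a_at, was at 141.6 on the high-fat diet and 258.5 on chow, 1.83-fold lower, and 2.18% of measured genes had a lower difference. The second, 1415917_at, was at 119.1 on the high-fat diet and 146.9 on chow, 1.23-fold lower. The probe sets did not agree in size, and the third did not share their direction. It is 1436704_x_at, just above the floor at 34.2 on the high-fat diet and 31.5 on chow, a difference of 0.12. The mean over the 3 was -0.35, so that the call rests on 1 probe set. The _a_at ending marks a probe set that binds several transcripts of its gene. Which transcripts differ between these probe sets was not tested.

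**Figure D2:**
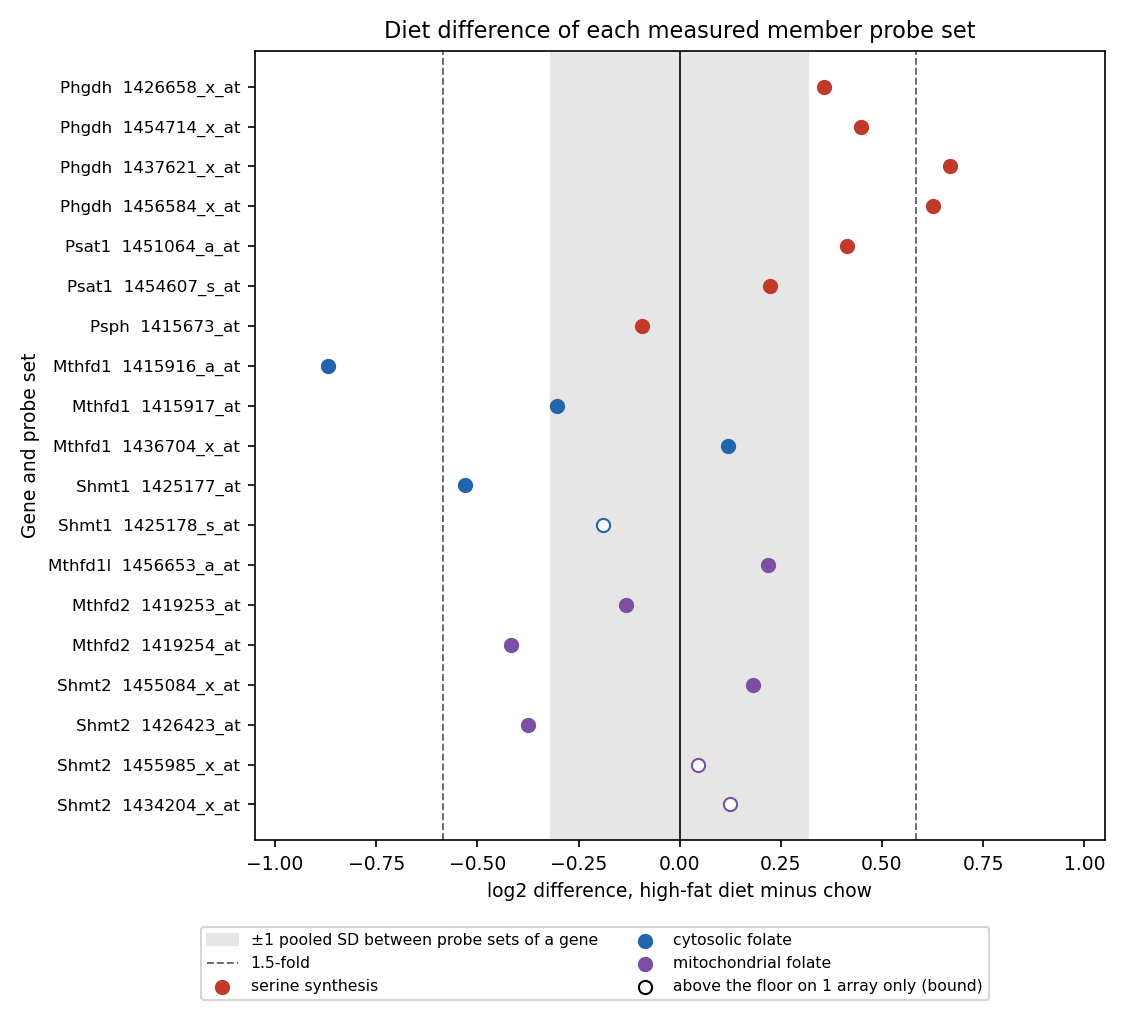
The log2 difference, high-fat diet minus chow, of the 19 measured member probe sets, with open circles for bounds. The grey band is 1 pooled SD of 0.32 between probe sets of a gene on either side of 0, and dashed lines mark 1.5-fold. Of the 16 that exceeded both floors 2 of Phgdh pass the upper line and 1 of Mthfd1 the lower.

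The corresponding stretches before the starts of Shmt1 and Mthfd1, the cytosolic genes that were lower, are shown with the same marking. Shmt1 lies on the minus strand at chr11:60811266-60811515 and Mthfd1 on the plus strand at chr12:76254982-76255231, both on GRCm38.p6 from RefSeq.
Shmt1: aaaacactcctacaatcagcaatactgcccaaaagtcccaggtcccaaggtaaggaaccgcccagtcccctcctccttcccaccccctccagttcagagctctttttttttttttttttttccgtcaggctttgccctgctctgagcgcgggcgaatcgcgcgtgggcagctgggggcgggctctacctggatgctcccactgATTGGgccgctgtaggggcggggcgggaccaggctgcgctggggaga
Mthfd1: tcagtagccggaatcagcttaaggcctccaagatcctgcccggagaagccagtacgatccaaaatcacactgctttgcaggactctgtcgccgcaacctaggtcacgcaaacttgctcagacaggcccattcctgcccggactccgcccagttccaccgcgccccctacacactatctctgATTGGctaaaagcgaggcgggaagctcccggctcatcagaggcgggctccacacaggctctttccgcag
Both hold 1 copy of CCAAT, in the reverse orientation. GGGCGG occurred 4 times on either strand in the Shmt1 window and 1 time in the Mthfd1 window, against 0 in the Phgdh window and 0 in the first Psat1 window. Counts in windows not shown differed again. The window before the second Psat1 start held 0 copies of CCAAT and 1 of GGGCGG, so the Psat1 counts depend on the start chosen. The Psph window held 2 copies of CCAAT and 3 of GGGCGG, the Mthfd2 window 3 and 0, and the Shmt2 window 0 and 0. With so few promoters this is a description of the letters and no comparison of groups.

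The mitochondrial arm showed no shared direction. Shmt2, which starts it, was at 105.6 on the high-fat diet and 93.2 on chow in 1455084_x_at, a difference of 0.18. Its only probe set without a suffix for shared binding, 1426423_at, was at 62.5 on the high-fat diet and 81.1 on chow, a difference of -0.38. These opposite signs leave no direction for Shmt2. The remaining 1434204_x_at and 1455985_x_at exceeded the floor on the high-fat diet array alone, at 31.2 and 29.5 there and at 23.2 and 24 on chow. Their differences were at least 0.13 and 0.04, too close to the floor to add to the comparison.

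Mthfd2, the mitochondrial dehydrogenase and cyclohydrolase that is low in most adult tissues and high in dividing cells, was lower in both of its probe sets by small amounts. In 1419253_at it was at 103.8 on the high-fat diet and 113.8 on chow, a difference of -0.13. In 1419254_at it was at 51.5 on the high-fat diet and 68.8 on chow, a difference of -0.42. Agreement of this size was common, since 16.4% of 3129 genes with 2 such probe sets had both lower by at least the smaller Mthfd2 difference, again a size chosen after the values were seen. Mthfd1l, the mitochondrial ligase that releases formate, had 1 probe set, at 53.2 on the high-fat diet and 45.7 on chow. The difference of 0.22 was under the probe SD of 0.37 at low brightness. Over the 5 mitochondrial probe sets that exceeded both floors, 2 were higher and 3 lower.

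**Figure D3:**
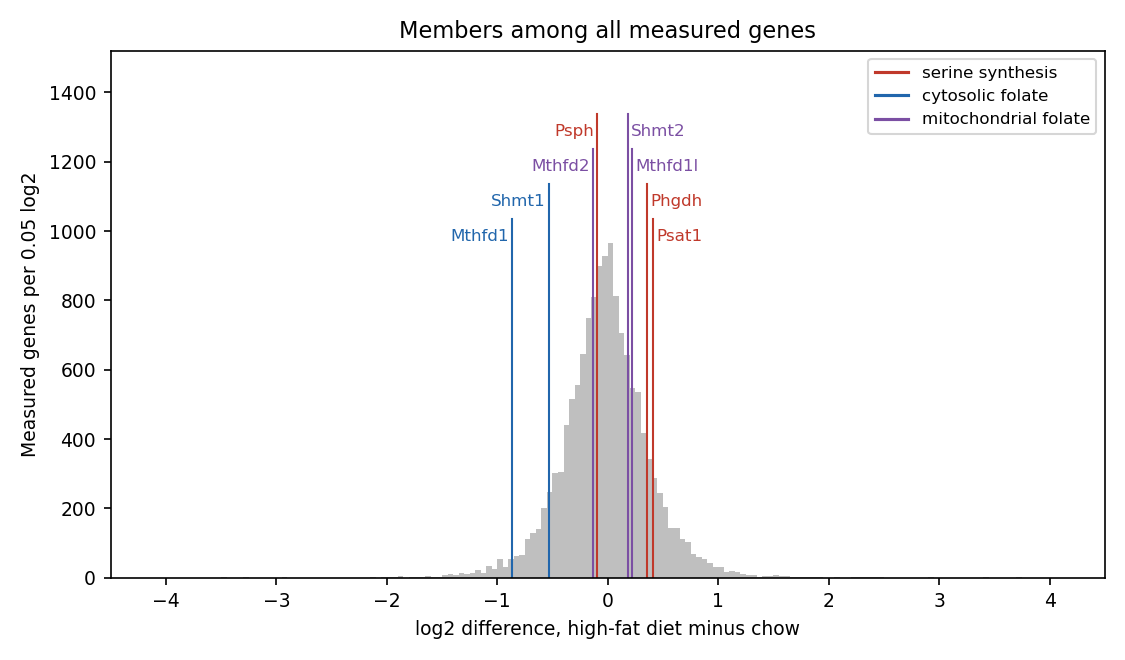
Histogram of the log2 difference, high-fat diet minus chow, of 14066 measured genes (grey), with the 8 members as lines coloured by role. Mthfd1 and Shmt1 lie in the lower flank, Phgdh and Psat1 in the upper flank, and the other 4 members near the centre.

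Serine must enter mitochondria before Shmt2 can use it, and Sfxn1, sideroflexin 1, is a known mitochondrial serine importer. Sfxn1 was lower on the high-fat diet in both probe sets. The first was at 644.4 on the high-fat diet and 1249.6 on chow, 1.94-fold lower. The second was at 299.9 on the high-fat diet and 671 on chow, 2.24-fold lower. Of the 3129 genes with exactly 2 such probe sets, 0.0639% (2 genes, Sfxn1 itself included) had both lower by at least the smaller Sfxn1 difference of -0.96. That size was chosen after the values were seen. By their representative probe sets the other carriers did not share a shift of this size. In the list of 9 serine and glycine transporters 8 were measured, 2 higher and 6 lower, with a median difference of -0.04. At 1.5-fold or more 0 were higher and 1, Sfxn1, lower. Sfxn3, its paralog, differed by 0.10, and Slc1a5, a carrier of neutral amino acids at the cell surface, by -0.01 at 4046.3 on the high-fat diet and 4065.5 on chow. A second Slc1a5 probe set was at 239 on the high-fat diet and 427.3 on chow, a difference of -0.84, so that the probe sets of this gene disagree in size.

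The remaining folate genes were evenly divided. Of 18 genes in this list 14 were measured, 7 higher and 7 lower, with a median of -0.01, and at 1.5-fold or more 0 were higher and 1 lower. That gene was Folr1, a folate receptor of epithelia, at 54.1 on the high-fat diet and 85.7 on chow, 1.58-fold lower. Folr2, a folate receptor known as a marker of resident macrophages, was at 454.4 on the high-fat diet and 320.7 on chow, 1.42-fold higher. Thus the receptors lay on opposite sides of 0. Mthfd2l, the paralog of Mthfd2, had a difference of -0.43 in its representative probe set, with -0.28 and 0.18 in its others above the floor. Tyms, thymidylate synthase, was under the floor on both arrays in all 4 of its probe sets, with intensities of at most 17.5 on the high-fat diet and 21.5 on chow. The macrophage list had 10 measured genes with a median of 0.07 and summed intensities of 8353.3 on the high-fat diet and 8175.3 on chow. Its genes lay on both sides of 0. The resident macrophage receptors Mrc1 and Cd163 differed by -0.44 and -0.54, Cd14, a lipopolysaccharide co-receptor, was 1.56-fold lower, and Itgax, the integrin CD11c, was 1.66-fold higher. The list's part in the Folr2 value was not tested.

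Genes that break down glycine and serine gave few measured members. Of 12 listed 5 were measured, with 1 at 1.5-fold or more higher and 1 lower and a median of 0.14. Glyctk, glycerate kinase, was 1.57-fold higher, at 96.2 on the high-fat diet and 61.1 on chow. Gcsh, the carrier protein of the glycine cleavage system, was at 1408.6 on the high-fat diet and 957.9 on chow, 1.47-fold higher. Its partner Gldc, the decarboxylase of that system, was under the floor on both arrays, at 15.8 on the high-fat diet and 3.3 on chow. Agxt, an aminotransferase of glyoxylate and serine that is prominent in liver, was at 34.1 on the high-fat diet and 62 on chow, 1.82-fold lower.

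Of 15 genes of the methionine cycle and salvage 11 were measured, with 0 at 1.5-fold or more higher and 1 lower and a median of -0.11. Mat2b, the regulatory partner of Mat2a, was at 456.5 on the high-fat diet and 451.7 on chow, a difference of 0.02. Ahcy, which removes the product of methylation reactions, differed by -0.20. Probe sets of some genes disagreed. Mtap, which salvages methionine from polyamine synthesis, differed by -0.12 in its representative probe set and by -0.41, -0.38 and 0.93 in its others. Ahcyl2, a relative of Ahcy, differed by 0.13 in its representative probe set and by 0.09 and -0.72 in its others. Bhmt, which remethylates homocysteine with betaine in liver, was above the floor only on chow, at 4.4 on the high-fat diet and 83.2 on chow, at least 2.98-fold lower. Mat1a, the liver form of the S-adenosylmethionine synthase, was under the floor on both arrays, at 5.4 on the high-fat diet and 28.2 on chow.

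Of 11 genes that use methyl groups or oxidise choline and sarcosine 8 were measured, with 0 at 1.5-fold or more in either direction and a median of -0.09. Nnmt, which methylates nicotinamide and is abundant in fat, was at 1610.6 on the high-fat diet and 1669.3 on chow, a difference of -0.05. The gene of this list farthest from 0 was Chdh, choline dehydrogenase, which starts the oxidation of choline to betaine, at 252.1 on the high-fat diet and 353.2 on chow, a difference of -0.49.

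The transsulfuration and sulfide list was lower in 7 of its 8 genes, with a median of -0.30, beside -0.02 for all measured genes. With plain probe sets only, the list median was -0.09. Cdo1, the brightest gene of the list, differed by only -0.05, at 4783 on the high-fat diet and 4951 on chow. At 1.5-fold or more 2 were lower and 0 higher, beside 6.4% and 5.82% of all measured genes. Tst, the mitochondrial rhodanese that detoxifies sulfide and cyanide, was at 276.7 on the high-fat diet and 557 on chow, 2.01-fold lower. Cbs, which joins serine to homocysteine and so draws on the serine pool, was at 70.3 on the high-fat diet and 127.9 on chow, 1.82-fold lower. Its next enzyme Cth differed by only -0.06, at 108.3 on the high-fat diet and 113 on chow. Agxt, Bhmt and Cbs are prominent in liver, and each was lower on the same array as the liver list described above. The part of the liver signal in these values, and in those of Mthfd1 and Shmt1, was not tested.

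**Figure D4:**
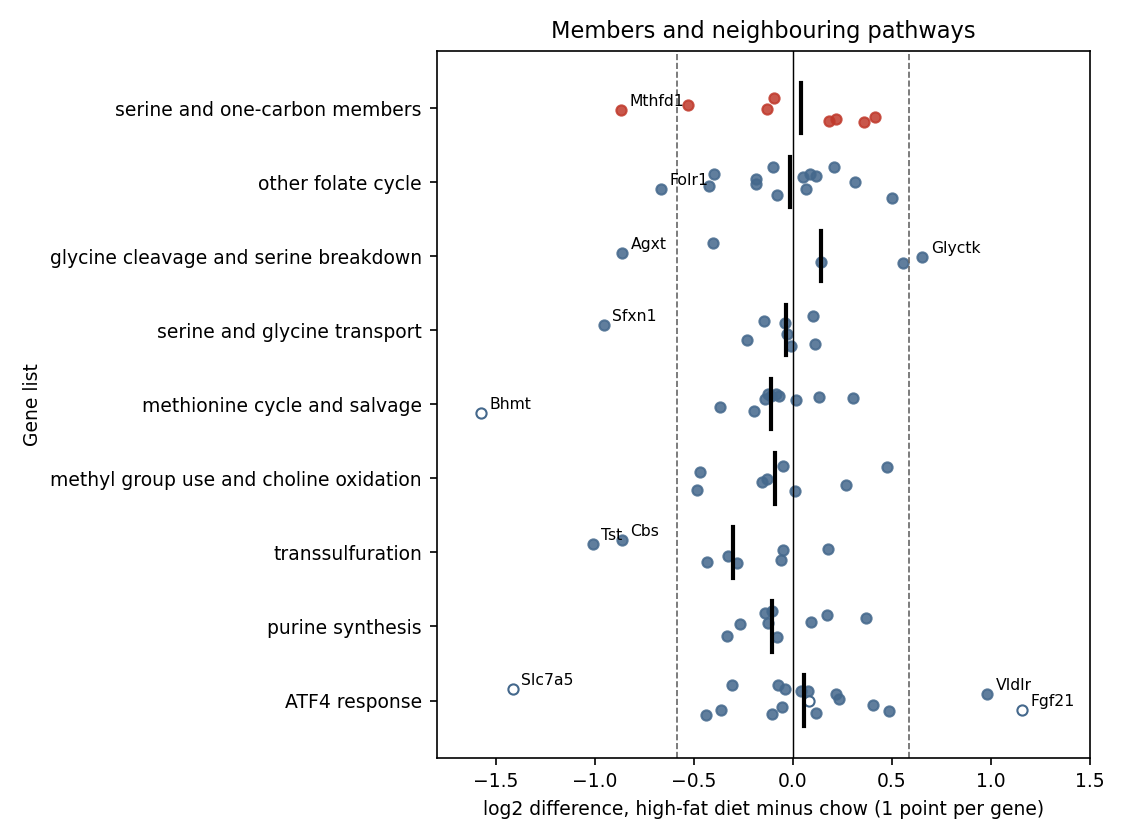
The log2 difference, high-fat diet minus chow, of each measured gene in the member list (red) and 8 neighbouring lists (blue), with open circles for genes above the floor on 1 array only, black bars for list medians, dashed lines at 1.5-fold and names for the points at 1.5-fold or more. Medians lie between -0.30 for transsulfuration and 0.14 for glycine cleavage and serine breakdown.

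Purine synthesis, a main use of cytosolic folate units, had 9 of 12 listed genes measured and 0 at 1.5-fold or more in either direction, with a median of -0.11. Prps1, which makes the activated ribose, lay farthest from 0 at 0.37, with 543.5 on the high-fat diet and 420.9 on chow. Gart, which uses the folate made by Mthfd1, was at 202.3 on the high-fat diet and 223.3 on chow in its representative probe set, a difference of -0.14. Its probe sets disagreed, with differences of -0.57, -0.67 and 0.11 in the other 3, so that its size depends on the one chosen.

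Phgdh, Psat1, Shmt2 and Mthfd2 are known targets of ATF4, the transcription factor of the amino acid response. The list of 20 ATF4 response genes had 18 measured, 10 higher and 8 lower, with a median of 0.06, and 2 were 1.5-fold or more higher and 1 lower. Atf4 was at 449.8 on the high-fat diet and 555.8 on chow, a difference of -0.31, with -0.30 in its other probe set above the floor. Asns, asparagine synthetase, was at 446.1 on the high-fat diet and 605.4 on chow, 1.36-fold lower, with -0.46 in its other probe set. Cebpg, also lower, differed by -0.36, -0.23 and -0.36 in its probe sets. Other genes of the list were higher. Sesn2, a leucine sensor, differed by 0.49 and 0.59 in its probe sets, Trib3, a pseudokinase, by 0.41 and 0.04, and Nupr1, a stress-induced nuclear protein, by 0.23 and 0.22. The list thus held genes on either side of 0, and any part of ATF4 in the member differences was not tested. Vldlr, a lipoprotein receptor, was 1.97-fold higher, at 531 on the high-fat diet and 268.9 on chow, although its 6 probe sets did not all share this direction. Fgf21, a metabolic hormone, exceeded the floor on the high-fat diet array alone, at 63.9 there and 13.1 on chow, at least 2.23-fold higher. Slc7a5, an exchanger of large neutral amino acids, was above the floor only on chow, at 14.8 on the high-fat diet and 74.4 on chow, at least 2.67-fold lower.

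The directions of Phgdh, Psat1, Psph, Shmt1, Mthfd2 and Mthfd1l were the same under each processing alternative that gave a value, whereas those of Mthfd1 and Shmt2 depended on the probe set. Part of this was fixed by construction. The floor settings could not move a representative probe set that lay above every floor, and the choice of probe set could not move Psph or Mthfd1l, which have 1 each. Nor could that choice turn the direction of Phgdh, Psat1, Shmt1 or Mthfd2, whose measured probe sets each share a direction. Centring on all probe sets or on reference genes subtracts a constant, -0.02 or 0.07. Either is too small to turn a member's representative probe set. Phgdh differed by 0.21 (quantile normalization) to 0.52 (mean of probe sets) over 9 alternatives and Psat1 by 0.22 to 0.43 over 9. Shmt1 ranged from -0.60 to -0.19 over 10 alternatives. Mthfd1 ranged from -0.94 to 0.12 and Shmt2 from -0.38 to 0.22. Centring on 12 measured reference genes, whose median difference was 0.07, gave a share of higher genes of 33.5% among all genes past 1.5-fold, against 47.6% on the deposited scale, and it placed 2 members, Mthfd1 and Shmt1, past 1.5-fold lower.

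**Figure D5:**
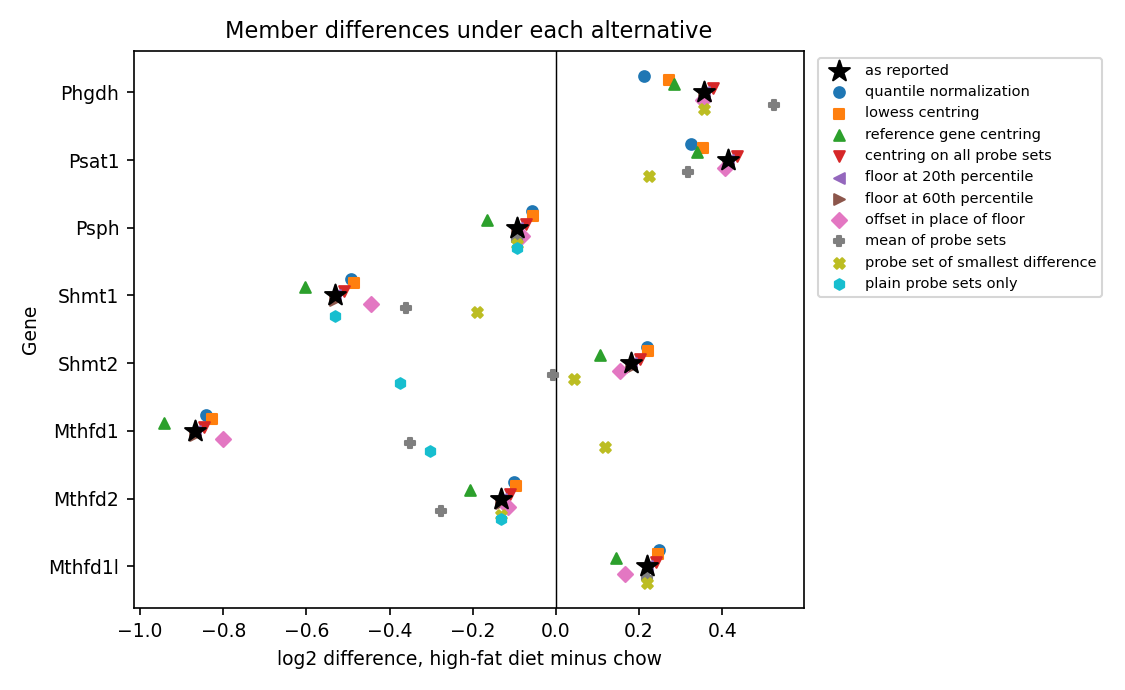
The log2 difference, high-fat diet minus chow, of each measured member as reported (star) and under each alternative (other symbols). Phgdh and Psat1 stay right of 0 and Shmt1 left of it, while Mthfd1 spans -0.94 to 0.12 and Shmt2 spans -0.38 to 0.22.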

How the data were processed

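RNA of epididymal fat was hybridised to an Affymetrix mouse array, 1 array per diet, per the labels' protocols. As deposited, each probe set has a linear intensity on either array. How the authors summarised and scaled these intensities is not given in the sources used here. Trimmed means (2% at each end) were 99.6 on both arrays, so intensities were used as deposited. A scaling of this kind removes any difference in total RNA per cell.

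Probe sets were named from a platform annotation of the array. Of 45037, 34945 had 1 gene symbol, 932 several and 9160 none here, and 34741 matched the RefSeq table by gene ID. Only those with 1 symbol were used. Measured probe sets are those at or over the floor on 1 or both arrays. Genes past 1.5-fold were counted by size, with no test. Members and gene lists were chosen with earlier results of these data known. All members were named, and from each pathway list the genes past 1.5-fold, the gene farthest from 0 and preset genes sharing an intermediate with a member (Mthfd2l, Mat2b, Ahcy, Tyms, Atf4 and Asns among them). Gcsh, Folr2, Sfxn3, Slc1a5, Gldc, Mat1a, Nnmt, Cth, Gart, Mtap, Ahcyl2, Sesn2, Trib3, Nupr1, Mrc1, Cd163, Cd14 and Itgax were added after their values were seen. Apoa1, Apoa2, Ttr, Cebpg, Msln, Mki67, Ccna2, Cdk1, Birc5, Cdo1, Lep, Slc2a4 and Pparg were also added in this way. Alternatives covered scaling, floor and choice of probe set. Calculations used Python 3.11.15 with numpy 2.4.6, pandas 2.3.3 and statsmodels 0.14.6, and were tested on simulated data. The number of arrays limits the precision.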

Additional observations from a re-analysis of the deposited data

How the results depend on the processing

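With 1 array per diet no replicate could be left out, and no paired analysis was possible because each diet has a single sample. Alternatives therefore concern only scaling, floor and probe set. Shifts were judged against the pooled probe SD of 0.32. The direction of Mthfd1 turned with the probe set of smallest difference (0.12), and its value was -0.35 with the mean of probe sets and -0.30 with plain probe sets only. Shmt1 came to -0.19 with the probe set of smallest difference, and Shmt2 to -0.38 with plain probe sets only, in which the median of the members was -0.30 over 5 measured genes. The number of members 1.5-fold or more lower was 2 with reference gene centring and 0 with the mean of probe sets, the probe set of smallest difference or plain probe sets only, against 1 as reported. The glycine cleavage and serine breakdown median was 0.48 with the floor at the 20th percentile. Among all genes, 818 were 1.5-fold or more higher and 900 lower as reported, beside 1639 and 1754 with the floor at the 20th percentile and 391 and 425 with it at the 60th, since the floor sets how many weak genes are measured. With plain probe sets only, Phgdh, Psat1 and Mthfd1l had no value, and Mthfd1l had none with the floor at the 60th percentile. Marker list medians also moved, in part because a setting can leave genes out of a list. The liver median was -1.06 as reported and between -1.70 (floor at the 20th percentile) and -0.22 (plain probe sets only), the proliferation median was 0.61 as reported, 0.21 with the floor at the 60th percentile and 0.0068 with plain probe sets only, and the mesothelial median was -0.72 as reported and -0.35 with plain probe sets only. The testis germ cell median, over 3 genes as reported, was 0.18, -0.40 with the floor at the 20th percentile and 0.51 with an offset in place of the floor, and the epididymis median, over 2 genes, was -0.16 and 0.16 with the offset.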
